A study of Homo sapiens with 4 samples.

Results

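The genes described here encode the machinery that copies DNA once per cell cycle: 43 protein-coding genes, chosen from a list of names and found in full among the 19821 protein-coding genes of the annotation used. They fall into 9 genes of origin licensing, 13 of the replicative helicase, 15 of the polymerases with the sliding clamp and its loader, and 6 of fork protection. The choice of genes was made with earlier results of these data known. Each gene was described by the γH2AX peaks at its ends, inside it and nearest to it. The peaks come from CUT&Tag, in which an antibody on chromatin guides a transposase that cuts and tags the DNA nearby, in the human liver cancer line HepG2. γH2AX is the histone variant H2AX phosphorylated at serine 139, a mark that forms around DNA double-strand breaks. The 4 samples are 4 groups of 1 sample: cells given the DMSO mock treatment and cells under lipid overload (PAOA in the sample titles), each assayed once with an antibody to γH2AX and once with IgG as control. No dose or duration of the lipid treatment is given in the sources used here. IgG samples were not used here. Peak lists carry no expression values, so the cell line was not checked against its markers.

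Replication starts when the origin recognition complex, with CDC6 and CDT1, loads the MCM ring onto DNA in G1, a step called licensing. In S phase CDC45 and the GINS complex join the ring to form the active helicase, polymerases copy the strands behind it, and RPA and the fork protection proteins guard the single strands and slow the fork when copying stalls. Many of these genes are switched on at the entry to S phase by E2F transcription factors, and γH2AX is also known to form at stalled forks.

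With 1 library per condition, no difference below has a replicate check and no test was made. There were 8542 mock peaks and 27296 lipid-overload peaks. A peak's size is given as the number of DNA fragments over its summit, solved from the fold and p that the authors deposited for it. From the background levels of both lists, the lipid-overload library was 2.62 times as deep as the mock library, a ratio against which each pair of values has to be read. Intervals are 95% intervals, exact Poisson for fragments and exact binomial for shares and ratios. Only counting error is in them, with no allowance for how the genes were chosen. Copies made by PCR are not independent molecules, and the intervals for fragments and ratios make no allowance for any such copies.

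The 7 promoters printed here, each the 250 bases before the annotated start, were chosen to show both kinds of promoter found among the members: the first 5 hold letters that E2F factors are known to bind and the last 2 do not. All 7 carried a peak at the 5′ end in lipid overload, and all except MCM7 also in mock. Capitals mark the E2F letters (TTTCCCGC, TTTGGCGC, TTTCGCGC or TTTGCCGC on either strand). The sequences are from RefSeq, build GRCh38.p14.
MCM6 (chr2:135876444-135876693, minus strand): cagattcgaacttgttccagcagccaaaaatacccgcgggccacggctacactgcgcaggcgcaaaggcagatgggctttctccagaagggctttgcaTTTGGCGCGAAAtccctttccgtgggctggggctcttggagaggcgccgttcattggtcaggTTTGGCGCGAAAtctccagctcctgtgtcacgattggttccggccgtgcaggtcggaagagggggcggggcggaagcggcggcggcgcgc
MCM7 (chr7:100101398-100101647, minus strand): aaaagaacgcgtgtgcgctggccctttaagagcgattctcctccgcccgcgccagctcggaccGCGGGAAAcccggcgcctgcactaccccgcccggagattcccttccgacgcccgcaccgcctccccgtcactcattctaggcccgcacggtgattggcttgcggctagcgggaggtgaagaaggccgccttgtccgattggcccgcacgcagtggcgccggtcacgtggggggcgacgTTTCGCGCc
PCNA (chr20:5126623-5126872, minus strand): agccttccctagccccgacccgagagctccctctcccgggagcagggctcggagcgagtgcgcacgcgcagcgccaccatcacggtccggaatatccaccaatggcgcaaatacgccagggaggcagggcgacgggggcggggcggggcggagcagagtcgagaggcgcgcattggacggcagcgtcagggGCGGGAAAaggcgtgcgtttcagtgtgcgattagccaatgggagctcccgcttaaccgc
GINS2 (chr16:85688955-85689204, minus strand): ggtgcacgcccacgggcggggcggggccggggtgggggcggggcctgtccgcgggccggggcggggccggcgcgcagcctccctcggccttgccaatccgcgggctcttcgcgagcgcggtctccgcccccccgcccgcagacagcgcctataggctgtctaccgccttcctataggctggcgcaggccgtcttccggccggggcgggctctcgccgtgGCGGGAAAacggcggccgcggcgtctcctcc
ORC3 (chr6:87589885-87590134, plus strand): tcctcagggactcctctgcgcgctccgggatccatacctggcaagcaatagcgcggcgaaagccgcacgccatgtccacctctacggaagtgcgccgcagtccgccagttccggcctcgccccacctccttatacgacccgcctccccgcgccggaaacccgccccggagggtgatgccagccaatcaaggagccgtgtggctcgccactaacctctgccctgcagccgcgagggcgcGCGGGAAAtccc
ORC6 (chr16:46689409-46689658, plus strand): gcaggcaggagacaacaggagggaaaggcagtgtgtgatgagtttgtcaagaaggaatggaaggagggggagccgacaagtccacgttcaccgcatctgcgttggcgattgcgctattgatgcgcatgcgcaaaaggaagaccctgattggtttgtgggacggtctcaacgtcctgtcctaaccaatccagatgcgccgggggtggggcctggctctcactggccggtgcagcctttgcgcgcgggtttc
MCM10 (chr10:13161308-13161557, plus strand): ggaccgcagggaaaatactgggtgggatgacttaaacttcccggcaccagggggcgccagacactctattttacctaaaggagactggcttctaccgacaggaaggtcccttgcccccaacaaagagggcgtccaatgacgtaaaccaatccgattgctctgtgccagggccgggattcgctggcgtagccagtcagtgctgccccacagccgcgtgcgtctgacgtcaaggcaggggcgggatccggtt

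The replication genes held a peak at a gene end more often than the average protein-coding gene in both libraries. A gene-end peak is one that reaches within 1 kb of either end of the gene. An end is either boundary of the annotated span, the start of the gene as well as its finish. A peak described below as at an end, or as shared with another gene, lies within 1 kb of that end and need not touch it. In mock, 13 of the 43 members had one (30.2%, 17.2 to 46.1), against 13.4% of all protein-coding genes. In lipid overload 34 had one (79.1%, 64.0 to 90.0), against 43.4%. Both lists marked 12 members (12.1% of all genes), lipid overload only 22 (31.4%), mock only 1 (1.34%) and neither list 8 (55.2%). With peaks inside the gene included, mock peaks marked 14 members and lipid-overload peaks 37, against 24.2% and 58% of all genes. The members were longer than genes at large (median 36.8 kb against 24.5 kb), and how far length bears on these counts was not tested. In mock most of these peaks were weak: with a −log10 q of at least 5 asked of each peak, 3 members remained in mock and 29 in lipid overload, against 3.84% and 29.8% of all genes. When the lipid-overload list was shortened to the length of the mock list, 24 members kept a gene-end peak there and 14 had one in lipid overload only, against 25.9% and 15.9% of all genes.

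By role, the shares in mock ran from about that of all genes to above it, with intervals that overlap throughout. Of the 13 helicase genes, mock peaks marked 6 (46.2%, 19.2 to 74.9) and lipid-overload peaks 12 (92.3%, 64.0 to 99.8), beside 13.4% and 43.4% of all protein-coding genes. Of the 9 licensing genes, 4 and 7 had one. The polymerase, clamp and clamp loader genes stood at 2 and 10 of 15, and the fork protection genes at 1 and 5 of 6. In mock these are 13.3% and 16.7%, near the share of all genes. The difference between the roles was not tested.

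**Figure D1:**
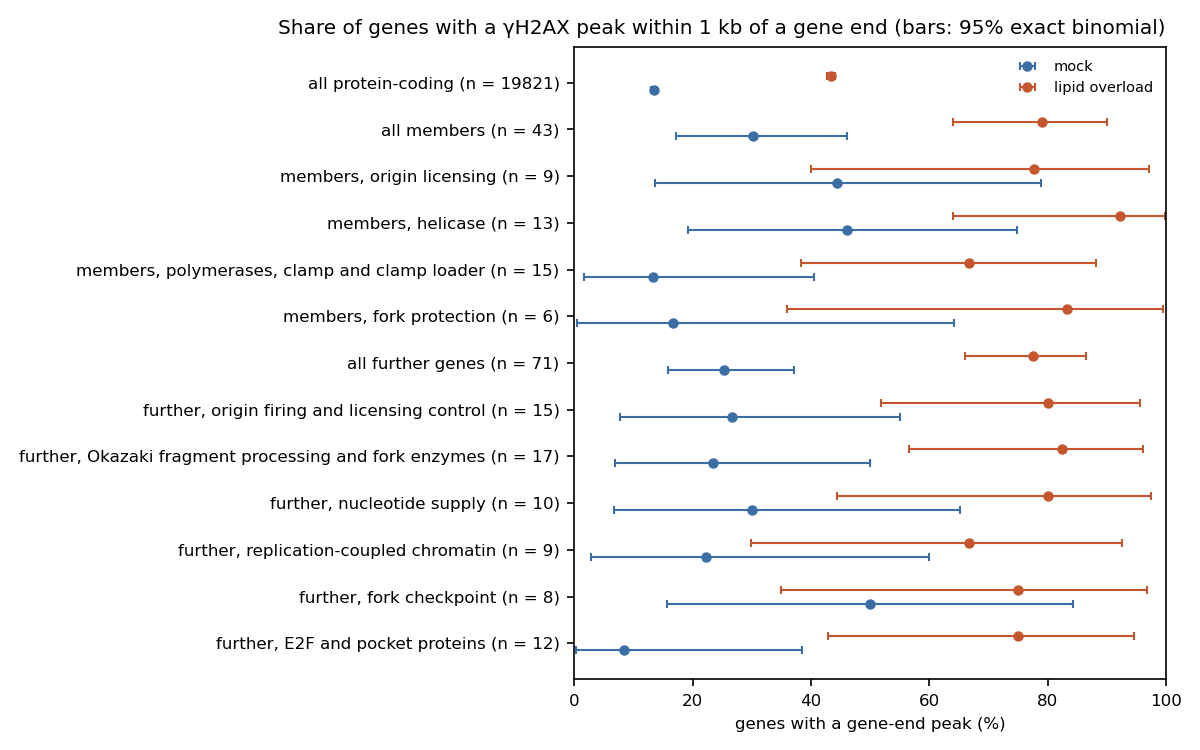
Share of genes with a γH2AX peak within 1 kb of a gene end (x axis, percent) for all protein-coding genes, the 43 members, their 4 roles and 71 further replication genes in 6 groups (y axis), in mock (blue) and lipid overload (orange); bars are 95% exact binomial intervals. The members stand at 30.2% and 79.1%, all protein-coding genes at 13.4% and 43.4%, and the intervals of the single roles overlap each other.

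Origin licensing genes gave the peak with the most fragments of any member. ORC6, the smallest subunit of the origin recognition complex, had 8 mock fragments (3.45 to 15.8) and 31 under lipid overload (21.1 to 44.0), where the peak covers 46688947 to 46689837 on chromosome 16 (hg38). A second mock peak of 6 fragments lay under the same lipid-overload peak. That lipid-overload peak also lay within 1 kb of an end of VPS35, a gene of endosomal sorting. ORC3, another subunit of the complex, had 7 mock fragments (2.81 to 14.4) and 18 under lipid overload (10.7 to 28.4), in peaks shared with the end of RARS2. GMNN encodes geminin, the inhibitor that keeps CDT1 from licensing a second time, and had 4 mock fragments (1.09 to 10.2) and 16 under lipid overload (9.15 to 26.0). In these 3 genes the lipid-overload summit lay within 73 bp of an annotated start.

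ORC4, a subunit with an ATP-binding fold, was marked in both lists by separate peaks, of 3 mock fragments (0.619 to 8.77) and 6 under lipid overload (2.20 to 13.1). Both lie at the 5′ end that it shares with MBD5, and they do not overlap. CDC6, the ATPase that helps load the MCM ring, had no mock peak and 17 fragments in lipid overload (9.90 to 27.2). CDT1, its partner in loading, had 15 in lipid overload only, in a peak of 136 bp with its summit 3 bp before the start. ORC2 had 9, also in lipid overload only.

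ORC1, the largest subunit, had no peak within 1 kb of the ends of its annotated span, but a lipid-overload peak of 15 fragments (8.40 to 24.7) lay inside it, 95 bp before an annotated start. That peak is also within 1 kb of an end of PRPF38A, a splicing factor gene. Counting any annotated start beside the gene ends, a choice made after the data had been seen, adds ORC1 and gives 35 members in lipid overload (46.3% of all genes) and 13 in mock (14.5%). ORC5 had no peak in either list, and its nearest one lay 680 kb away in mock and 104 kb away in lipid overload.

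Among the 6 subunits of the MCM2 to MCM7 ring, the motor that unwinds DNA, all 6 were marked at a gene end in lipid overload and 3 of them also in mock. Of all protein-coding genes, 43.4% were marked in lipid overload and 12.1% in both lists. MCM5 had 11 mock fragments (5.49 to 19.7) and 28 under lipid overload (18.6 to 40.5), the highest mock value among the members. The lipid-overload peak covers 35399881 to 35400115 on chromosome 22. In the same order, MCM3 had 6 (2.20 to 13.1) and 13 (6.92 to 22.2), and MCM6 had 4 (1.09 to 10.2) and 11 (5.49 to 19.7). The other 3 subunits were in the lipid-overload list only. MCM2 had 24 fragments (15.4 to 35.7), in a peak that reaches the end of TPRA1. MCM7 had 19 (11.4 to 29.7), shared with the end of AP4M1, and MCM4 14 (7.65 to 23.5), shared with PRKDC, the gene of the DNA-dependent protein kinase catalytic subunit. Over the 6 genes the lipid-overload values spanned 11 to 28 fragments.

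Of the other 7 helicase genes, 6 were marked in lipid overload and 3 in mock, against 43.4% and 13.4% of all protein-coding genes. They comprise factors that turn the ring into an active helicase and MCM8, an MCM relative with a role in recombination. GINS2 and GINS4 are subunits of the GINS complex. GINS2 had 8 mock fragments (3.45 to 15.8) and 24 under lipid overload (15.4 to 35.7). GINS4 had 7 (2.81 to 14.4) and 26 (17.0 to 38.1). MCM10, which helps start unwinding at the loaded ring, had 6 (2.20 to 13.1) and 12 (6.20 to 21.0). CDC45, the third part of the active helicase, had 16 fragments in lipid overload only (9.15 to 26.0), at an end shared with UFD1, and a second, weaker peak of 6 fragments inside the gene. GINS1 and MCM8 had 6 each in lipid overload only, and the MCM8 peak also lay within 1 kb of an end of TRMT6. GINS3, the remaining GINS subunit, had no peak in or at the gene, with the nearest at 11.1 kb in mock and 4.94 kb in lipid overload.

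Of the genes that copy the strands, PCNA alone was marked at a gene end in both lists. PCNA is the ring-shaped clamp that holds polymerases on DNA. It had 8 mock fragments (3.45 to 15.8) and 26 under lipid overload (17.0 to 38.1). The lipid-overload peak covers 5126545 to 5127107 on chromosome 20, also within 1 kb of a boundary of CDS2. A further lipid-overload peak of 17 fragments lay inside the gene, 69 bp before a second annotated start, with no mock peak over it. POLD1, the catalytic subunit of polymerase δ, which copies the lagging strand, had 25 fragments in lipid overload only (16.2 to 36.9), the highest value among members absent from the mock list. Its peak also lay within 1 kb of an end of NR1H2, which encodes the oxysterol receptor LXRβ. The summit of this peak lay 4 bp before a start of POLD1. A peak of 9 fragments lay inside POLD1.

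The other polymerase subunits were listed with fewer fragments. POLE, the catalytic subunit of polymerase ε on the leading strand, had 15 fragments in lipid overload only (8.40 to 24.7), and its partner POLE2 had 9 (4.12 to 17.1). The gene-end peak of POLE also lay within 1 kb of an end of PXMP2. POLA1 and POLA2, subunits of the polymerase that lays down primers, had 10 and 11, both without a mock peak. POLA2 also held a peak of 19 fragments (11.4 to 29.7) inside the gene, higher than the one at its end, and POLE held inside peaks of 7 and 6. PRIM2, the large primase subunit, had 10 at an end shared with RAB23, and inside peaks of 8 and 6. The annotation lists a pseudogene copy of it, PRIM2BP, so reads could have been split between the copies. POLD2 had 10, in lipid overload only. POLD3 was the only member with a gene-end peak in mock only, of 6 fragments (2.20 to 13.1), at its higher-coordinate end, and held peaks of 8 and 6 fragments inside the gene in lipid overload.

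The clamp loader, replication factor C, opens the PCNA ring. Of its 5 genes, RFC5 had 15 fragments (8.40 to 24.7) and RFC2 11 (5.49 to 19.7), in lipid overload only. RFC1, RFC3 and RFC4 had no peak in or at the gene in either list, and neither had the primase gene PRIM1. Their nearest lipid-overload peaks lay 68.9 kb away for RFC1, 1232 kb for RFC3, 5.18 kb for RFC4 and 5.92 kb for PRIM1. The clamp loader thus stood at 2 of 5 genes in lipid overload, which is near the 43.4% of all protein-coding genes.

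Fork protection genes had one member in both lists. CLSPN encodes claspin, which relays the stalled-fork signal to the kinase CHK1. It had 6 mock fragments (2.20 to 13.1) and 10 under lipid overload (4.80 to 18.4). TIMELESS and TIPIN form a complex that travels with the fork. TIMELESS had 18 (10.7 to 28.4) and TIPIN 8 (3.45 to 15.8), both in lipid overload only, at ends shared with MIP and MAP2K1. TIPIN also held a peak of 5 fragments inside the gene, 132 bp after another annotated start. RPA1 and RPA2, subunits of the protein that coats single-stranded DNA, had 14 (7.65 to 23.5) and 10 (4.80 to 18.4) in lipid overload only. The gene-end peak of RPA1 also lay within 1 kb of an end of SMYD4. RPA1 held 2 further peaks of 7 and 5 fragments inside the gene. RPA3, the smallest subunit, had no gene-end peak but an inside one in both lists, of 4 mock fragments and 13 under lipid overload, at an end of UMAD1.

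**Figure D2:**
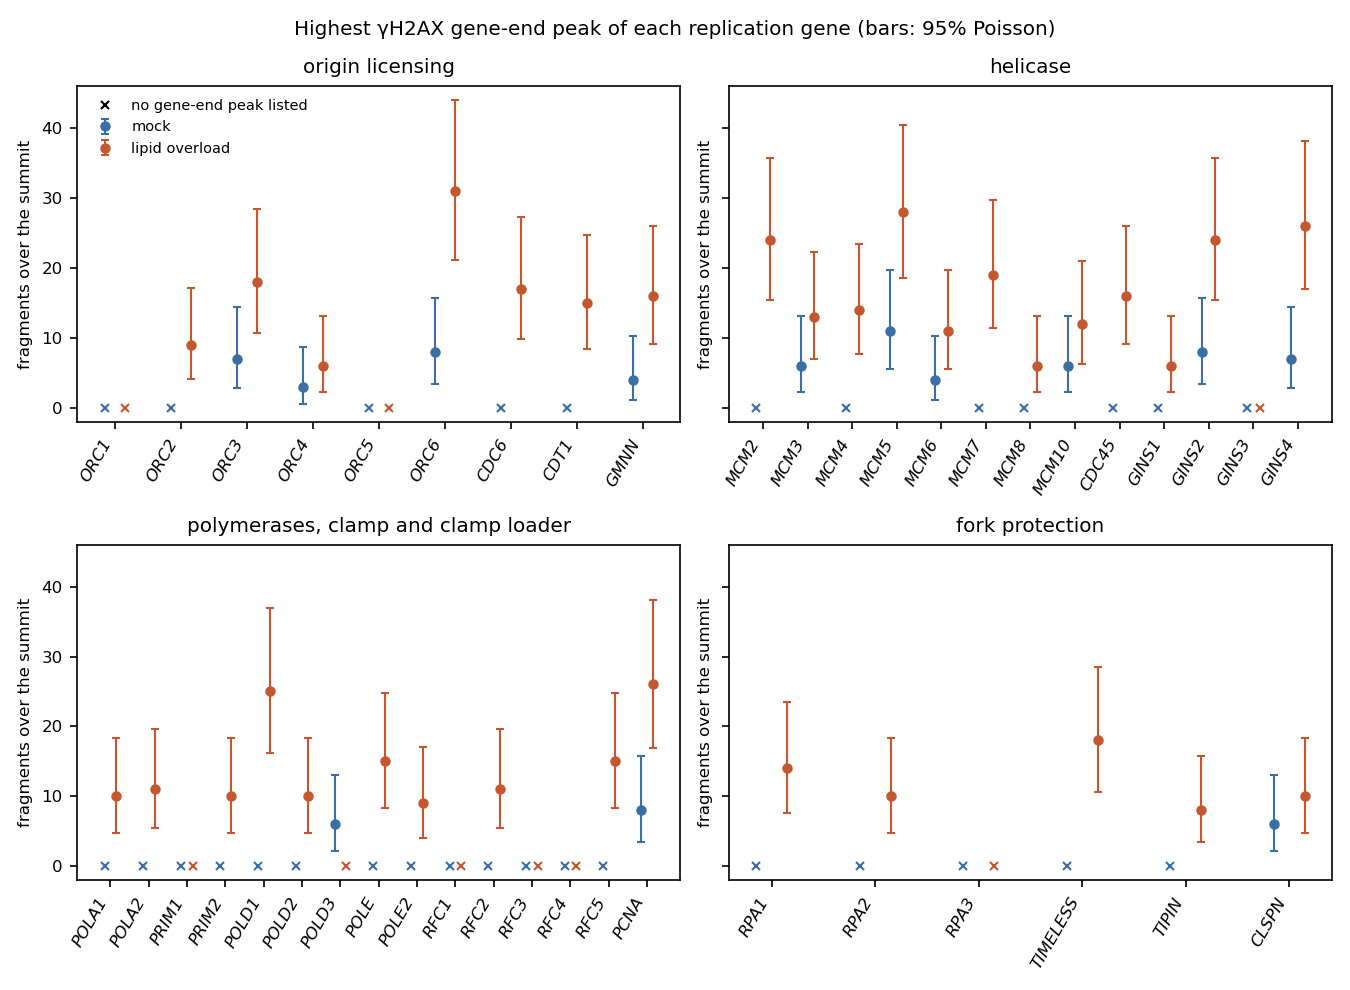
Fragments over the summit of the highest gene-end peak (y axis) of each of the 43 members (x axis), in 4 panels by role, in mock (blue) and lipid overload (orange); bars are 95% Poisson intervals and crosses at 0 mark genes with no gene-end peak in that list, not a measured 0. Mock values reach from 3 to 11 and lipid-overload values from 6 to 31.

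Over the members, the highest gene-end peak held a median of 6 mock fragments (3 to 11 over 13 genes) and 14 under lipid overload (6 to 31 over 34 genes). The medians over all protein-coding genes with a gene-end peak were 7 and 12. Peaks at replication genes were thus of ordinary size for these libraries. The 34 genes held 38 different gene-end peaks in lipid overload, and no peak was shared between members. The median width of these peaks was 338 bp, against 261 bp over all gene-end peaks of the list. The 14 mock peaks had a median width of 172.5 bp, against 211 bp.

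Where peaks of both libraries overlapped at a member's end, the number of fragments differed about as much as the depth of the libraries. Of the 38 lipid-overload peaks at member gene ends, 11 overlapped a mock peak, at 11 genes (28.9%, against 21.8% of all gene-end peaks), or 4 when 50% of each peak had to overlap. In the other direction 12 of the 14 peaks from mock met one from lipid overload (85.7%, against 80.8%). The exceptions were those of ORC4 and POLD3. The overlapping peaks are not always one site. Their summits lay 4 to 476 bp apart, with a median of 52 bp. They were farthest apart at MCM3, where the peaks share 9 bp, and next at GMNN, at 316 bp. The ratio of lipid-overload to mock fragments ran from 1.67 at CLSPN (0.549 to 5.58) to 4 at GMNN (1.29 to 16.4), with a median of 2.75. Every one of the 11 intervals takes in the depth ratio of 2.62. For all 2126 protein-coding genes with such a pair the median was 2.63, and the interval left out the depth ratio for 1.88% of them. At these fragment numbers a change beyond depth was not detectable at any of the 11 genes, and the wide intervals do not show that there was none.

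**Figure D3:**
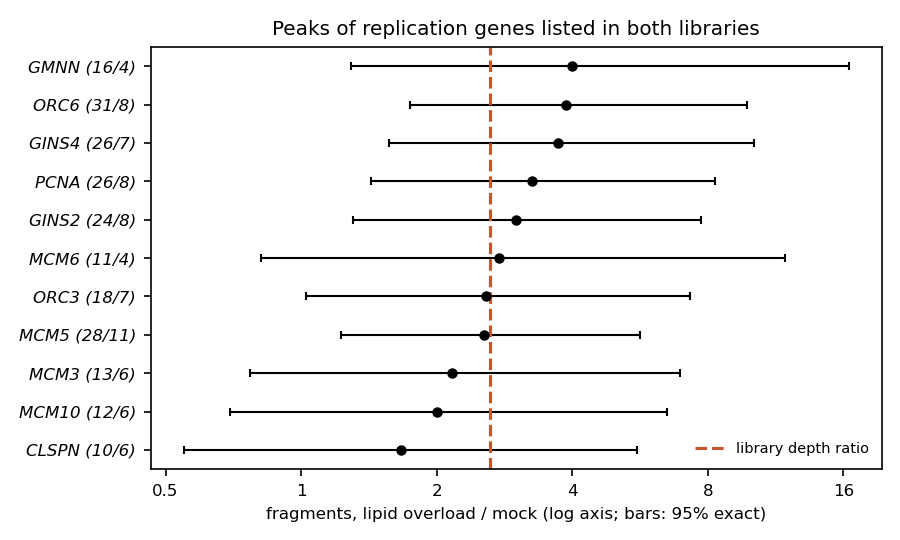
Ratio of lipid-overload to mock fragments (x axis, log scale) at the 11 members whose gene-end peaks overlap between the lists, with both fragment numbers beside the gene name (lipid overload first); bars are 95% exact intervals and the dashed line is the depth ratio of 2.62. The ratios run from 1.67 to 4 and every bar crosses the line.

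The 22 members listed in lipid overload only held 6 to 25 fragments, with a median of 12.5, against 17 for the 12 members in both lists. Divided by the depth ratio, 11 of the 22 would hold at most 5 fragments, the median of the mock list. The same was so for 64.1% of all genes marked in lipid overload only. Depth and treatment cannot be told apart for these genes. The other 11 include POLD1, MCM2, MCM7, TIMELESS, CDC6 and CDC45.

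Gene-end peaks of the members lay at the start of the gene wherever the strand was known. It was known for 37 of the 43 members. Of these, 30 had a peak at the 5′ end in lipid overload and 0 at the 3′ end, against 42.6% and 5.87% of the 15812 protein-coding genes with a known strand. In mock the counts were 10 and 0, against 12.9% and 1.49%. At the 3′ end a count of 0 among 37 is near these shares, so it is not shown to be particular to the members. Members without a known strand are left out of these counts. POLD3 is one of them, and its mock peak lay at its higher-coordinate end. In lipid overload the summit of the highest gene-end peak lay within 250 bp of an annotated start in 28 of 30 members (93.3%), against 66.6% of all genes with such a peak. PCNA was just outside, at 251 bp, and PRIM2, whose promoter entry lies far inside the gene, was the other exception. In lipid overload 23 of the 29 summits within 1 kb lay before the start and 6 after it. In mock it was 9 and 1 of 10. The side of the summit over all protein-coding genes is not given here, so this is not shown to be particular to the members.

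**Figure D4:**
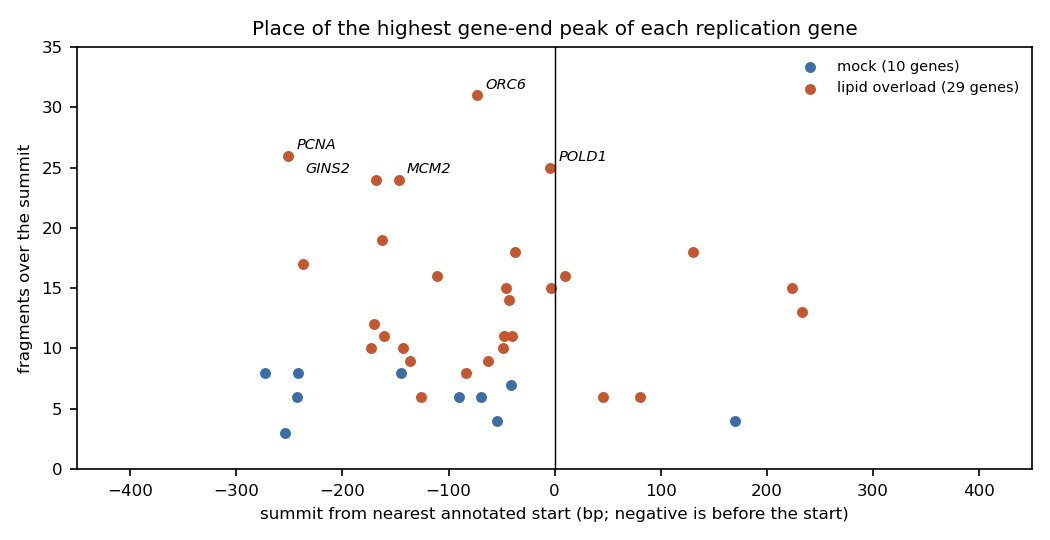
Distance of the summit from the nearest annotated start (x axis, bp, negative before the start) and fragments over the summit (y axis) for the highest gene-end peak of each member with a known start, in mock (blue, 10 genes) and lipid overload (orange, 29 genes, PRIM2 left out). Lipid-overload summits lie between 251 bp before and 233 bp after the start, most of them before it.

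Members stood close to other genes more often than genes at large, and those that did were marked more often in lipid overload but not in mock. Of the 43 members, 19 (44.2%) had the end of another protein-coding gene within 1 kb of one of their own, against 28.6% of all. Of these 19, 18 were marked at a gene end in lipid overload, against 62.7% of all genes with such a neighbour. Of the 24 members without one it was 16 (66.7%), against 35.8%. In mock it was 5 of the 19 (26.3%, against 19.8%) and 8 of the 24 (33.3%, against 10.9%). The difference between the members with and without a neighbour was not tested. In lipid overload the highest peak of 15 of the 34 marked members also lay within 1 kb of an end of another coding gene. In mock that of 4 of 13 did. Such a peak cannot be given to one gene alone. The same count over all marked protein-coding genes is not given here. The members were marked more often than genes at large on both sides of this split.

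Promoters of the members were also rich in CpG. Among the 37 members in the promoter table, the 300 bases around the start held a median of 30 CpG, against 22 over all protein-coding genes, and 29 of the 37 had more than the median of all genes. In the quartile with the most CpG (over 32), 13 of 14 members were marked at a gene end in lipid overload, against 62.0% of all genes of that quartile. In the next quartile (23 to 32 CpG) it was 10 of 15 members (66.7%), against 62.0%. In the quartile below that it was 5 of 6 members (83.3%), against 45.7%, and in the lowest 2 of 2, against 12.5%. These 2 are ORC4 and PRIM2, and their CpG was not read at the marked place. The ORC4 summit lay 80 bp from another start than the outermost one used. The PRIM2 summit lay 92456 bp from the start used. In lipid overload the share of members was thus close to that of all genes in 1 quartile and above it in the other 3, which hold 22 of the 37 members. The lowest of these 3 rests on ORC4 and PRIM2 alone. In mock the shares from the highest quartile to the lowest were 14.3% of members and 17.6% of all genes, 26.7% and 20.5%, 50% and 14.8% (3 of 6 members), and 50% and 4.04% (1 of 2). How far CpG content, neighbouring genes, gene length or expression set the members' shares was not tested.

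E2F letters were common in the members' promoters. They were found within the 300 bases around the start (250 before, 50 after) in 18 of the 37 members (48.6%), against 4.45% of the 15812 promoters. By role these were 8 of 10 helicase, 6 of 14 polymerase, 3 of 9 licensing and 1 of 4 fork protection genes. MCM6, printed above, has 4 matches in 2 stretches of TTTGGCGCGAAA, since a match on each strand overlaps the other. Of the 18 members with E2F letters, 16 were marked at a gene end in lipid overload, against 60.4% of all 704 genes with them, and 6 had one in mock, against 20.9%. Of the 19 members without them it was 14 and 4, against 44.4% and 13.8% of all genes without. The letters themselves lay under a lipid-overload peak in 12 of the 18 members (66.7%) and under a mock peak in 4, against 35.1% and 7.67% of the 704. Those under a mock peak were MCM3, MCM6, ORC3 and CLSPN. CCAAT was present in 23 of the 37 (62.2%), against 36.4%, and the cell cycle homology letters TTTGAA or TTCGAA in 1, MCM6, against 13.5%, both strands searched. A match describes the letters and shows neither binding nor a cause.

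Other genes of replication were marked about as often as the members. Of 71 further genes, mock peaks marked the ends of 18 (25.4%, 15.8 to 37.1) and lipid-overload peaks those of 55 (77.5%, 66.0 to 86.5). Beside the 13.4% and 43.4% of all genes, high shares were therefore not particular to the core machinery. In origin firing and licensing control it was 4 and 12 of 15. CDK2, a kinase that helps to fire origins, had 25 mock fragments and 46 under lipid overload. These peaks lie outside the gene, beyond its higher-coordinate end, and also reach within 1 kb of an end of RAB5B. At the other end of CDK2 lay a lipid-overload peak of 13 fragments and no mock peak. CCNE2, a cyclin of CDK2, had 20 and MCM9 12, in lipid overload only.

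Among enzymes of Okazaki fragments and the fork, 4 and 14 of 17 were marked. TOP1, which relaxes the DNA ahead of the fork, had 6 mock fragments and 36 under lipid overload, and TOP2A 5 and 20. CHTF18, of an alternative clamp loader, had 31 in lipid overload only. In nucleotide supply it was 3 and 8 of 10. CTPS1, which makes CTP, had 12 and 32, SAMHD1, which breaks down dNTPs, 5 and 16, and the kinase gene DCK 6 and 13.

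Of the genes of replication-coupled chromatin, 2 and 6 of 9 were marked. The histone chaperone gene ASF1B had 11 and 32 fragments, while CHAF1A, of the chromatin assembly factor, had 27 and the DNA methyltransferase gene DNMT1 20, in lipid overload only. Fork checkpoint genes stood at 4 and 6 of 8, with RAD1 at 4 and 17, RAD17 at 8 and 13 and the kinase gene ATR at 6 and 12. E2F and pocket protein genes stood at 1 and 9 of 12, and no gene was in both lists. With 12.1% of all genes in both, a count of 0 among 12 is near the background. TFDP1, the partner of E2F factors, had 21 fragments, E2F3 18 and the pocket protein gene RBL1 15, in lipid overload only. The gene marked in mock only was E2F5, with 3 fragments.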

How the data were processed

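The submitters' processing notes name FastQC, BWA, MACS2 (version 2.1.2) and deepTools, and genome build hg38. No settings, and no statement on IgG as control in peak calling, are given in the sources used here. The labels' protocols state 100000 cells per assay and 14 PCR cycles. The deposited peak lists, 1 per γH2AX library, give a score, a fold (linear ratio), −log10 p and −log10 q per peak, which are the authors' values. The score was not used.

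Fragments over a summit were solved from fold (fragments plus 1 over background plus 1) and the Poisson tail p. A whole number fitted 100% of mock and 99.99% of lipid-overload peaks within 0.0001 in log10 p. The step was tested on simulated data. The depth ratio came from the genome background over the fragment length (137 and 124 bp).

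Genes and promoters came from RefSeq tables of GRCh38.p14, whose coordinates are those of hg38. Of 59792 genes, 718 out of position order by over 1 Mb were set aside. Strand was known for 15812 of 19821 coding genes and 37 of 43 members. MCM4, MCM5, GINS4, POLD3, RPA2 and RPA3 have no promoter entry used here. Peaks overlapped when sharing 1 bp. Where a gene has several starts, the outermost gave the promoter.

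Members and gene lists were chosen with earlier results of these data known. Values were given for all members, and for up to 3 further genes per group by −log10 q. Alternatives were a −log10 q or a fold of at least 5, lists of equal length, gene ends of 3 kb, the 5′ end only, 6 or more fragments, and other overlap rules. Python 3.11.15 and scipy were used.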

Additional observations from a re-analysis of the deposited data

How the results depend on the processing

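Of 28 alternative values, 25 stayed within 1.5 times the reported count and 3 did not. With a −log10 q of at least 5, members with a gene-end peak in mock numbered 3 instead of 13. With lists of equal length, members marked in lipid overload only numbered 14 instead of 22. When 50% of each peak had to overlap, 4 instead of 11 of the 38 lipid-overload peaks at member gene ends overlapped a mock peak. Over the other settings the counts ran from 10 to 13 in mock, 24 to 35 in lipid overload, 20 to 26 in lipid overload only and 27 to 37 with any peak in lipid overload. In each of these settings the members' share was above that of all protein-coding genes. The 5′ end alternative could be counted for 37 members and gave no value for peaks anywhere in the gene. No paired analysis was possible because each group has 1 sample. Depth limits both lists: at most 5 fragments stood behind 55.3% of the mock peaks and 18.6% of the lipid-overload peaks.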
